A study of Mus musculus with 2 samples.

Results

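Transthyretin (Ttr), folate receptor alpha (Folr1), the potassium channel Kcnj13, the chloride intracellular channel Clic6, the homeobox factor Otx2 and prostaglandin D2 synthase (Ptgds) were followed in brain tissue of E18.5 mouse embryos that were homozygous for the Ctcf mutation on a C57BL/6 background (C57BL/6 N in the study's methods). The genes were chosen by name, 6 of the 32285 genes in the RNA count matrix, and all 6 were found. RNA and open chromatin had been read from the same barcodes by SPARC-seq, with 1 RNA library and 1 accessibility library. Every cell carried the mutated Ctcf, made by CRISPR/Cas9 editing, and wild-type tissue read in the same way was not analysed here, so no value below is an effect of the mutation. Since each assay had 1 library, without replicates, groups of spots could not be tested against each other, and each interval is a 95% interval that covers counting error only. The number of embryos behind the libraries is not given in the sources used here.

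The choroid plexus is a folded epithelium in the brain ventricles that secretes cerebrospinal fluid. Its cells release transthyretin, which carries thyroxine and retinol-binding protein, and they move folate into the fluid with Folr1. Kcnj13 is an inward rectifier channel of the apical membrane, and Otx2 is a transcription factor that the tissue needs to form. Ptgds, the lipocalin-type prostaglandin D synthase, is abundant in the meninges as well as in the choroid plexus.

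Each barcode was a pair of 8-base segments, and the same 50 sequences served in both positions. The pairs are read here as spots that can hold several cells, which is an inference from the barcodes, and the place of a segment in the tissue was not known. After limits on genes and mitochondrial UMIs, 1992 of 1993 barcodes were kept, with 8711132 UMIs, a median of 4157 UMIs per spot (907 to 12442) and a median of 21705 fragments (5759 to 87572). In a spot, fewer cells of a type and less RNA per cell cannot be told apart.

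Ttr was among the most abundant RNAs of the library, and the channels were near the limit of detection. Over all kept spots Ttr had 10947 UMIs, which is 1257 CPM (the usual count scaled to the total UMIs, exact Poisson interval 1233 to 1280), and it ranked 33 among 21689 protein-coding genes. Ptgds had 3548 UMIs or 407 CPM (394 to 421), at percentile 98.6 of protein-coding genes. Otx2 followed with 219 UMIs or 25.1 CPM (21.9 to 28.7), and Folr1 with 130 UMIs or 14.9 CPM (12.5 to 17.7). Clic6 had 64 UMIs or 7.35 CPM (5.66 to 9.38), and Kcnj13 had 37 UMIs or 4.25 CPM (2.99 to 5.85). Genes known from the same epithelium thus differed widely in UMIs, and those of the membrane proteins Folr1, Clic6 and Kcnj13 were few.

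Per kilobase of annotated exon, the level of Ttr was 9230 UMIs (9058 to 9405) and that of Ptgds 2152 (2081 to 2224). Folr1 had 56.6 UMIs per kilobase of exon (47.3 to 67.2) and Otx2 51.9 (45.2 to 59.2), so that the intervals of these neighbours in the order overlapped. Kcnj13 had 29.1 (20.5 to 40.2) and Clic6 16.4 (12.6 to 20.9), the lowest level, and these intervals touched as well. Whether reads came from the ends or the whole of a transcript is not given in the sources used here, so the order per kilobase depends on that choice. Per kilobase of gene span, Otx2 with 13.6 UMIs stood before Folr1 with 10.4, and the rest of the order was kept.

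At least 1 Ttr UMI was found in 1808 of 1992 spots, a share of 90.8% (Clopper-Pearson, 89.4% to 92.0%), and a Ptgds UMI in 1402 spots, or 70.4% (68.3% to 72.4%). Otx2 was seen in 204 spots, Folr1 in 114, Clic6 in 61 and Kcnj13 in 35. The 100 spots richest in skeletal muscle RNA served as a comparison, since muscle should lack these genes, although such spots can hold other cells too. Their Ttr level was 721 CPM (649 to 799) and their Ptgds level 411 CPM (357 to 470). After thinning each spot to 2000 UMIs, which left out the shallower spots and kept 1831 of all kept spots and 98 of the muscle-rich spots, a Ttr UMI was expected in 75.8% of all spots and 76.7% of muscle-rich spots. For Ptgds the shares were 47.0% and 46.3%, for Otx2 4.64% and 4.02%, for Folr1 2.88% and 1.15%, for Clic6 1.43% and 1.87%, and for Kcnj13 0.759% and 0.399%. Unthinned, the muscle-rich shares were 98% for Ttr, 71% for Ptgds, 11% for Otx2, 4% for Clic6, 3% for Folr1 and 1% for Kcnj13, with a median of 4739 UMIs per spot against 4157 over all kept spots. For Ttr, Ptgds and Otx2 the thinned share in muscle-rich spots was thus close to that over all spots. Clic6, Folr1 and Kcnj13 had 5, 3 and 1 UMIs in the muscle-rich spots, too few to compare. Whether the muscle-rich UMIs were stray RNA or came from other cells in these spots was not tested. Detection alone did not set an average spot apart from a muscle-rich one, so contrasts between spots are followed below.

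Those contrasts were steep for Ttr. Its UMIs were spread over the second segments with a dispersion of 548 (chi-square over its degrees of freedom, where counts in proportion to depth give about 1) and over the first segments with a dispersion of 99.7. A dispersion of at least 2 was found for 10.2% of the 12944 genes with at least 50 UMIs over the second segments, and for 0.927% over the first segments. Ptgds reached 63.6 over the second and 7.31 over the first segments. Folr1 reached 4.31 and 2.03. Otx2, with 1.96 and 0.795, and Clic6, with 1.39 and 1.22, stayed under the limit. Kcnj13 had too few UMIs to be counted, with values of 1.48 and 1.22. At the same relative unevenness this dispersion rises with the UMIs of a gene, so the values do not rank the genes by unevenness. For sparse genes such as Otx2 and Clic6, a value under the limit does not show an even spread. The 5 second segments with most Ttr UMIs held 50.6% of them (49.7% to 51.5%) and 11.7% of all UMIs. For Folr1 this share was 36.9% (28.6% to 45.8%), for Ptgds 30.5% (29.0% to 32.1%) for Otx2 23.3% (17.9% to 29.5%), for Clic6 37.5% (25.7% to 50.5%) and for Kcnj13 45.9% (29.5% to 63.1%). The segments were picked on the same counts, which raises the share of sparse genes such as the last ones.

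Ttr was concentrated in 3 of the 46 second segments that held at least 20000 UMIs. These segments are printed with the 3 that were highest in Ptgds. The sets did not share a member, which is likely in any case for sets of 3 among 46.
Ttr, highest: gccgcaac
Ttr, second highest: ctgatggt
Ttr, next: ccgagaat
Ptgds, highest: gaccttga
Ptgds, second highest: gctaactt
Ptgds, next: tagagtaa
The Ttr level was 9686 CPM (9214 to 10177) in gccgcaac, 8501 (8116 to 8899) in ctgatggt and 7003 (6644 to 7376) in ccgagaat, against 1973 (1780 to 2180) in the segment that came next and a median of 664 over the 46 segments. The Ptgds level was 2382 CPM (2147 to 2636) in gaccttga, 1930 (1567 to 2352) in gctaactt and 1624 (1432 to 1834) in tagagtaa, against a median of 284. The Folr1 level was highest in gccgcaac, at 129 CPM (79.9 to 197), and second highest in ccgagaat, at 54.0 (26.9 to 96.6), whereas ctgatggt had 23.2 (7.53 to 54.1). Otx2 was highest elsewhere, with 94.8 CPM (45.4 to 174) in catactcc.

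**Figure D1:**
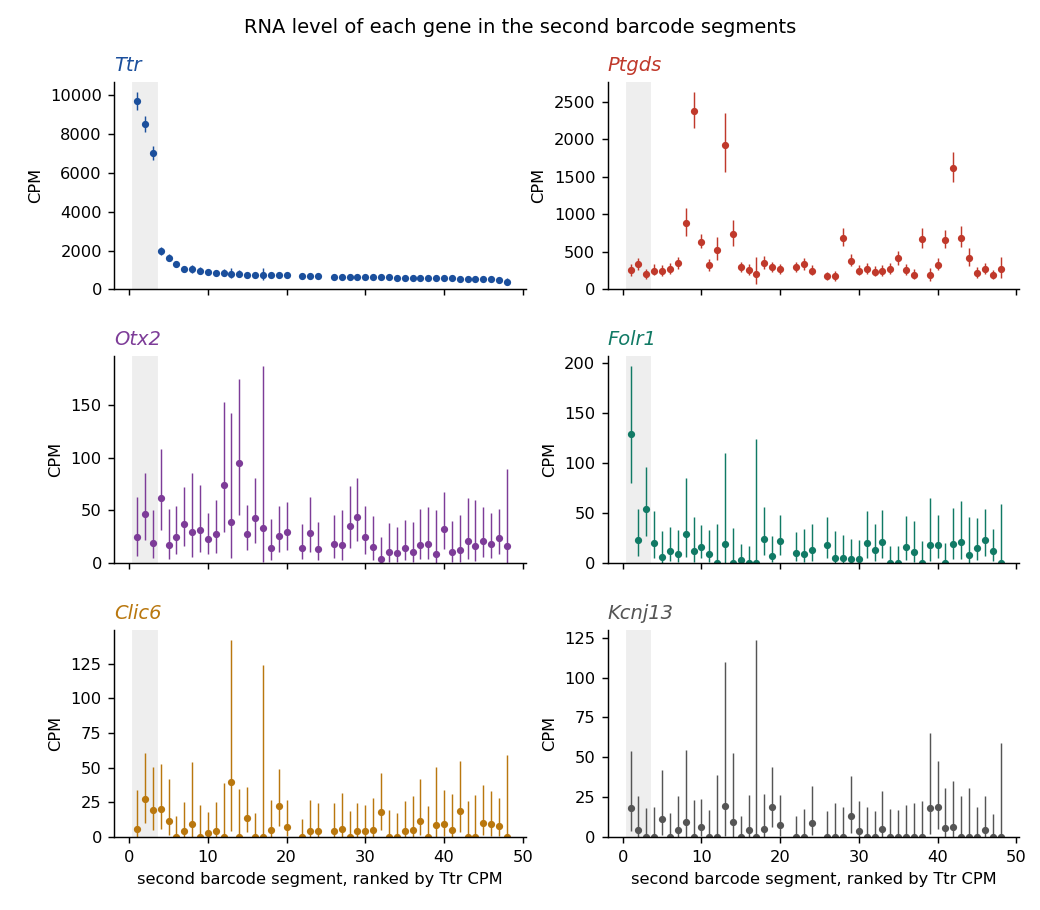
Each panel shows 1 gene, with the RNA level in CPM (vertical axis from 0) of each second barcode segment with at least 20000 UMIs, ordered by Ttr level on the horizontal axis. Bars are 95% Poisson intervals. The grey band marks the 3 segments highest in Ttr, where Ttr lay between 7003 and 9686 CPM. Ptgds peaked in other segments, at 2382, 1930 and 1624 CPM.

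Within the 3 Ttr segments, no spot was without Ttr. Their 134 spots ranged from 1743 CPM over a median of 5429 to 61333 CPM, and all 134 lay above the median of 646 CPM among the 1858 spots outside the segments. Outside them, 184 spots had no Ttr UMI and the highest reached 23431 CPM. On top of this shared level, a few first segments stood out. Ttr reached 52657 CPM where gaccttga crossed the 3 segments, 35088 where tagagtaa crossed them and 32639 where caaccgct did, against a median of 5245 over the 49 first segments present there. Outside the 3 second segments, the same gaccttga had 1341 CPM (1149 to 1557), caaccgct 1132 (987 to 1293) and tagagtaa 784 (659 to 926), and tccggcct was highest with 2131 (1911 to 2369), against a median of 703 CPM of the first segments there.

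**Figure D2:**
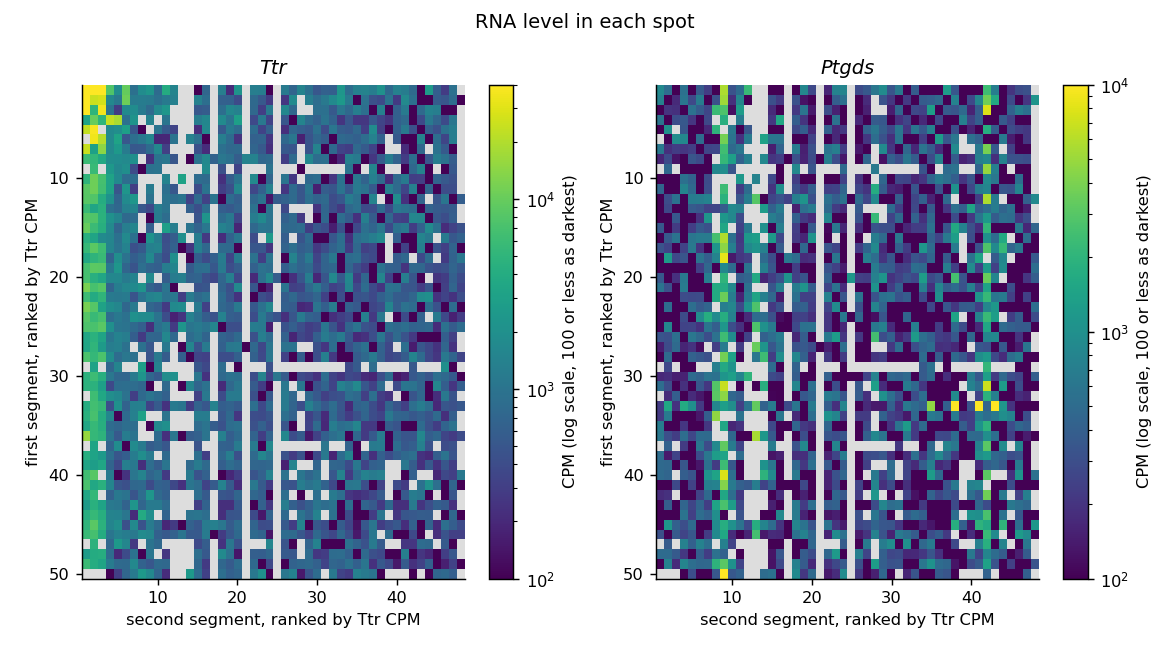
Each square is a spot, placed by its first segment (vertical) and second segment (horizontal), both ranked by Ttr level, and not by place in the tissue. Colour gives the RNA level in CPM on a log scale, with a scale of its own for each gene, and grey marks pairs that were absent or not kept. Ttr forms 3 bright columns, which hold 19 of the 22 spots with at least 10000 CPM, and these columns have a brighter corner. Ptgds forms separate columns and a few bright spots in 1 row.

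Guided by this picture, the spots were set in 3 zones after the data had been seen. The core was the 22 spots with at least 10000 CPM of Ttr, of which 19 lay in the 3 Ttr segments. The lowest of them had 10604 CPM and the highest spot left out had 9878 CPM. The other 115 spots of the 3 segments formed the flank, and the remaining 1855 spots are called elsewhere. Median UMIs per spot were 4331 in the core, 3975 in the flank and 4159 elsewhere, and median mitochondrial shares were 0.694%, 0.706% and 0.722%. Ttr chose the zones, so its own values describe them. The core held 23.9% of Ttr UMIs in 0.991% of all UMIs, the flank 22.7% in 5.86%, and the remaining 53.4% came from elsewhere.

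After Ttr itself, Folr1 and Clic6 had the highest ratios of the 6 genes in the core. Folr1 had 23 UMIs there, or 266 CPM (169 to 400), against 11.2 CPM (9.03 to 13.8) elsewhere, a ratio of 23.8 (14.3 to 37.9, conditional binomial interval). Clic6 had 8 UMIs, or 92.7 CPM (40.0 to 183), against 6.41 CPM (4.79 to 8.40), a ratio of 14.5 (5.93 to 30.6). Otx2 had 7 UMIs and a ratio of 3.29 (1.31 to 6.90). Kcnj13 had 2 UMIs and a ratio of 5.70 (0.662 to 22.3), an interval that held 1. Ptgds, with 33 UMIs and a ratio of 0.915 (0.629 to 1.29), gave no detectable difference. A ratio of at least 2 between core and elsewhere was found for 8.48% of the 12944 genes with at least 50 UMIs, a share to which low counts contribute, and among the 4 countable members other than Ttr it was reached by Folr1, Clic6 and Otx2. Among countable genes with at least 10 UMIs in the core, Folr1 came next after Ttr. That limit used counts in the core itself and left out Clic6, with 8, so the rank is a description only.

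Spot by spot, Folr1 was found in 11 of the 22 core spots and Clic6 in 6, Otx2 in 6 and Kcnj13 in 2. The spot with the highest Ttr level (gaccttga with gccgcaac, 207 Ttr UMIs of 3375) held 5 Folr1, 1 Kcnj13, 1 Clic6 and 3 Ptgds UMIs. The next (gaccttga with ccgagaat, 182 Ttr UMIs of 3247) held 2 Folr1 and 2 Clic6 UMIs and no Ptgds UMI. Low-count genes were thus detected together in the richest spots, although no core spot held more than 5 UMIs of Folr1 or 2 of Clic6 or of Otx2.

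In the flank Ttr and, less so, Folr1 were higher than elsewhere, whereas the intervals of Clic6, Otx2 and Kcnj13 held 1. The Ttr level there was 4874 CPM (4685 to 5070), 6.77 times that elsewhere (6.45 to 7.09). Folr1 had 16 UMIs and a ratio of 2.80 (1.53 to 4.79), Clic6 4 UMIs and a ratio of 1.22 (0.321 to 3.32), Otx2 12 UMIs and a ratio of 0.954 (0.485 to 1.70), and Kcnj13 2 UMIs and a ratio of 0.963 (0.112 to 3.77). Ptgds was lower than elsewhere, with 249 CPM (207 to 296) against 418 (404 to 432), a ratio of 0.596 (0.495 to 0.712). A ratio of at least 2 in the flank was found for 1.58% of genes, and Folr1 was past it. Skeletal muscle genes were lower too, with 0 of 12 at least 2-fold higher and a summed ratio of 0.613 (0.586 to 0.642) in the flank, and their part in the Ptgds value was not tested.

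**Figure D3:**
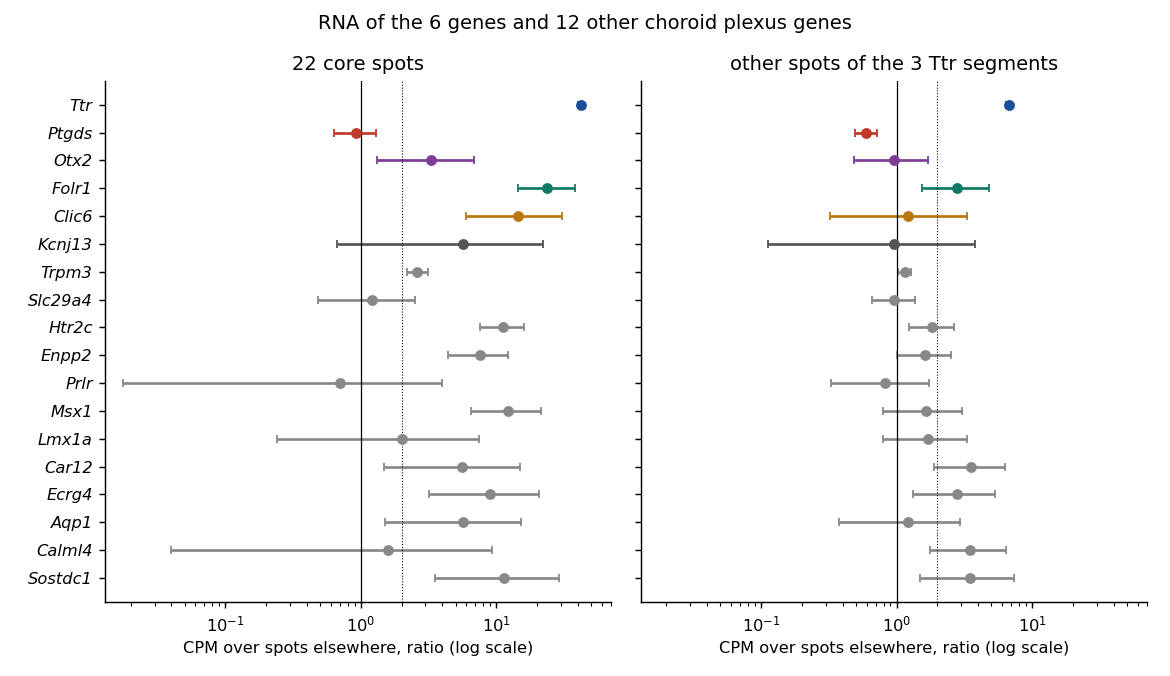
The ratio of CPM in the core (left) and in the flank, the other spots of the 3 Ttr segments (right), over spots elsewhere is given on a log axis with 95% conditional binomial intervals. Coloured points are the 6 genes and grey points are 12 other choroid plexus genes with at least 50 UMIs. The solid line marks 1 and the dotted line 2. Folr1 stood at 23.8 and Clic6 at 14.5 in the core, but at 2.80 and 1.22 in the flank.

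Counted per 100 Ttr UMIs, Folr1 was at 0.880 UMIs (0.558 to 1.32) in the core, 0.643 (0.368 to 1.04) in the flank and 1.56 (1.25 to 1.91) elsewhere. Otx2 went from 0.268 (0.108 to 0.552) in the core and 0.482 (0.249 to 0.843) in the flank to 3.42 (2.96 to 3.93) elsewhere and 2.997 (1.496 to 5.36) in muscle-rich spots. For Ptgds the values were 1.26 (0.869 to 1.77), 5.10 (4.26 to 6.07), 58.0 (56.0 to 59.9) and 56.9 (49.5 to 65.2). The intervals of Ptgds per Ttr overlapped between muscle-rich spots and elsewhere. Ttr is the denominator and chose the core and the flank, so that lower values there follow from the choice. Clic6 had 0.306 UMIs (0.132 to 0.603) in the core and 0.890 (0.664 to 1.17) elsewhere, and Kcnj13 0.0765 (0.00927 to 0.276) and 0.565 (0.389 to 0.793).

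**Figure D4:**
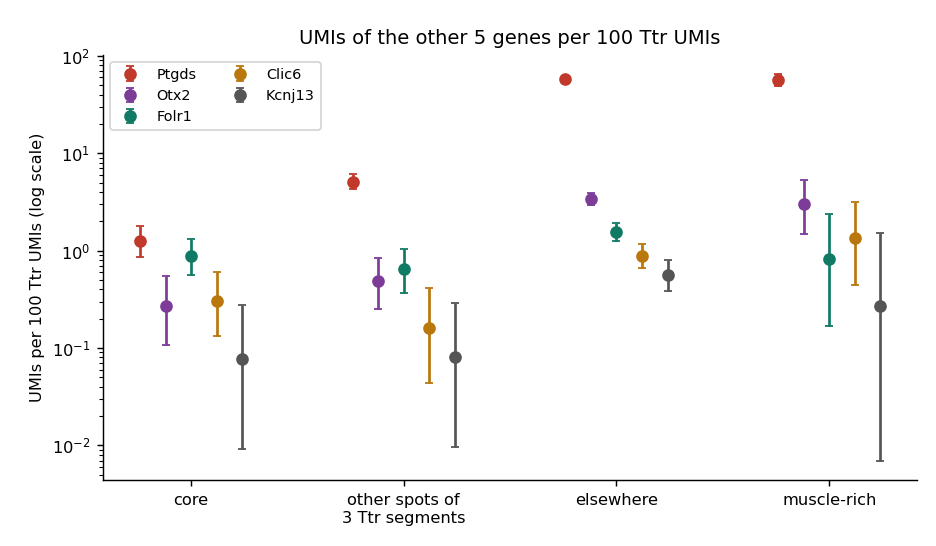
The UMIs of Ptgds, Otx2, Folr1, Clic6 and Kcnj13 per 100 Ttr UMIs are plotted on a log axis in the core, the flank (other spots of the 3 Ttr segments), elsewhere and in the muscle-rich spots, which can overlap the other zones. Bars are 95% Poisson intervals of the gene's own count. Ptgds stood at 58.0 elsewhere and 56.9 in muscle-rich spots, and the values in the core and flank are lower in part because high Ttr chose these spots.

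A wider group, the 5% of kept spots highest in Ttr (100 spots, 95 of them in the 3 Ttr segments, lowest 4272 CPM and next below 4240 CPM), gave smaller ratios in the same order. Folr1 had 37 UMIs there and 93 in the other spots, a ratio of 8.55 (5.68 to 12.6), and Clic6 had 11 and 53, a ratio of 4.46 (2.10 to 8.64). The ratio was 1.90 (0.373 to 6.03) for Kcnj13, 1.47 (0.788 to 2.52) for Otx2 and 0.630 (0.511 to 0.767) for Ptgds. Without the segment ctgatggt, which held most Ttr UMIs, the ratio was 2.44 for Clic6 and 0.952 for Otx2. Of all countable genes, 2.32% had a ratio of at least 2.

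When the grouping was turned round, Ttr was higher where the other choroid plexus genes had been detected. The 375 spots with a UMI of Folr1, Kcnj13, Clic6 or Otx2 had 2186 CPM of Ttr against 994 CPM in the other 1617 spots, a ratio of 2.20 (2.12 to 2.29), and the 53 spots with at least 2 such UMIs had 6537 CPM, a ratio of 6.13 (5.83 to 6.43). These spots were deeper, with a median of 4872 UMIs against 4007, and 5643 against 4129. By gene, the Ttr ratio was 4.41 (4.21 to 4.61) for spots with Folr1, 3.64 (3.43 to 3.85) for Clic6, 2.90 (2.68 to 3.14) for Kcnj13 and 1.52 (1.45 to 1.60) for Otx2. Without the 22 core spots the ratio for the 4 genes was 1.13, so most of the difference lay in spots that Ttr itself had chosen. Ptgds was 0.892 times as high in the 375 spots (0.820 to 0.968).

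Over the 1992 spots the correlations were weak. Pearson's r of log-scaled values was 0.18 for Ttr and Folr1, 0.09 for Folr1 and Clic6, 0.08 for Ttr and Clic6 and -0.02 for Ttr and Ptgds, and every point shares the library and its depth. Over the 46 second segments, r for Ttr and Folr1 was 0.76, higher than that of Folr1 with any other of 7931 genes with at least 200 UMIs, but it was 0.12 over the 43 segments left without the 3 highest in Ttr, and Spearman's rho over the 46 segments was 0.17. For Ttr and Otx2, r over the 46 segments was 0.12 and rho 0.54, and without the 3 segments they were 0.38 and 0.54. Among those genes, the most like Ttr over spots were Slc4a2 (0.13), an anion exchanger, the serotonin receptor Htr2c (0.11), Klhdc8b (0.11), Kitl (0.11), which encodes stem cell factor, and Mast4 (0.10). Folr1, at 0.18, lay above them but has under 200 UMIs. Those most like Ptgds were Hba-a1 (0.24), Pomc (0.24), Hba-a2 (0.22), Hbb-bs (0.20) and Gh (0.20), which are globins and pituitary hormones. No gene exceeded 0.09 for Kcnj13 (Asrgl1, 0.08) or for Otx2 (Epha10, 0.09), and such values in sparse counts are no finding.

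The other choroid plexus genes were counted from a list of 20. In the core, 9 of the 12 countable genes had a ratio of at least 2, as had 8.48% of all countable genes, with a median of 5.65 against 0.930 over all. Sostdc1, with 41 UMIs elsewhere, was countable only with the core and flank, and without it 8 of 11 did. Among them Msx1, a homeobox factor, reached 12.3 (6.50 to 21.5), the Wnt and BMP antagonist Sostdc1 11.5 (3.53 to 29.0), Htr2c 11.2 (7.53 to 16.04), Ecrg4 8.95 (3.17 to 20.6) and Enpp2, which makes lysophosphatidic acid, 7.55 (4.39 to 12.2). Car12, Aqp1, Trpm3 and Lmx1a made up the 9, with 5.61, 5.70, 2.62 and 2.02, and the interval of Lmx1a held 1 (0.241 to 7.51). The monoamine transporter Slc29a4 (1.21), Calml4 (1.59) and the prolactin receptor Prlr (0.696) were below 2, and Prlr, named after its values were seen, was also below 1 in the flank (0.824). In the flank Car12 (3.56), Calml4 (3.503) and Ecrg4 (2.78) reached 2, against 1.58% of all countable genes. Sostdc1, at 3.49, had 55 UMIs in all, of which 9 lay in the flank, so it was countable only through them.

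Ttr is also made in liver and in retinal pigment epithelium, and Otx2 in the latter and in photoreceptors. In the whole library, the liver genes Alb, Afp and Serpina1a had 2, 3 and 0 UMIs, whereas Apoa1 had 76 and Apoa2 17. Of the photoreceptor and pineal genes, Crx had 0 UMIs, Gngt2 56, Aanat 11, Rcvrn 9 and Rom1 9. Of the 12 pigment epithelium genes, Rpe65 had 4 UMIs, Tyr 7, Best1 6, Slc45a2 4, and Tyrp1, Rgr and Mlana 1 each. The melanocyte factor Mitf had 130, the retinaldehyde-binding Rlbp1 93, Dct 24, Trpm1 21 and Pmel 14, and the part of liver, pigment or photoreceptor cells in the Ttr and Otx2 levels was not tested. Of the 8 liver, 12 pigment epithelium and 8 photoreceptor and pineal genes, 1, 2 and 1 were countable. In the core, Mitf, with 4 UMIs, and Rlbp1, with 2, had ratios of 3.21 (0.861 to 8.45) and 2.21 (0.264 to 8.24), with intervals that held 1, whereas Apoa1 had 0 UMIs and Gngt2 had 1. Of 6 countable ependymal and multiciliated genes, 1 (Deup1, 2 UMIs) reached 2, and of 9 meningeal genes and 5 pituitary genes none did, counts that are near the background of 8.48%. In the core the 8 pituitary genes listed had 7 UMIs and a summed ratio of 0.389 (0.156 to 0.803). None of the 5 countable ones had more than 3 UMIs there (Gh), and Tshb and Pitx1 had 0, too few to compare singly. Summed ratios there were 0.582 (0.519 to 0.652) for skeletal muscle, 0.829 (0.761 to 0.902) for neuron and 1.35 (1.07 to 1.69) for radial glia genes.

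Some genes that act with the 6 were also counted in the core. Of 6 countable genes of folate uptake and use none reached a ratio of 2, which is near the same background, and the summed ratio of the 7 genes listed was 0.928 (0.372 to 1.92), so that no difference was detectable. In the chloride intracellular channel family, Clic4 reached 2.72 (1.39 to 4.798) and Clic3 3.92 (0.461 to 14.9), whereas Clic1 had 1.06 (median of the 3 countable genes 2.72). Clic3, with 54 UMIs in all and 48 elsewhere, was countable only with the core and flank. The prostaglandin genes Hpgds and Ptgs1 had 3 and 2 UMIs and ratios of 4.03 and 2.98 (median 3.51), with intervals that held 1. Otx1 had 34 UMIs in the library and none in the core.

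Ptgds kept other company. The 5% of spots highest in Ptgds (100 spots, lowest 1477 CPM and next below 1466 CPM) shared 1 spot with the 100 Ttr-rich spots and none with the core, and 67 of them lay in the 3 Ptgds segments. Sets of 100 among 1992 spots share few spots in any case, and the core has 22, so the small overlap is no result. The Ptgds-rich spots were shallower, with a median of 2578 UMIs against 4235. Of the pituitary genes, the hormone precursor Pomc reached 8.55 (7.24 to 10.1), growth hormone (Gh) 7.92 (6.48 to 9.64), Cga, the shared subunit of glycoprotein hormones, 3.91 (2.21 to 6.51) and Pitx1 2.30 (0.722 to 5.65). Tshb, at 6.69, had 54 UMIs in all, of which 10 lay in these spots, so it was countable only through them. Of 9 countable meningeal genes 6 had a ratio of at least 2 (median 2.31), among them the matrix gene Islr, at 4.696 (2.98 to 7.13), the GABA and taurine transporter Slc6a13, at 4.18 (2.93 to 5.81), Crabp2, at 3.27 (1.15 to 7.59), and Dcn, at 2.45 (1.34 to 4.16). The globins Hba-a1, at 2.24 (2.12 to 2.36), Hba-a2, at 2.19 (2.06 to 2.32), and Hbb-bs, at 2.04 (1.91 to 2.18), were higher as well. They belonged to no list and were picked for their high r with Ptgds over these same spots, so their ratios are a description only. Only 1 of 12 choroid plexus genes and 0 of 12 muscle genes reached 2, the background was 3.45% of genes and the median of all genes was 0.969. The Ttr level in these spots was 933 CPM (824 to 1052), below the 1268 CPM of all other spots, which include the core and flank, but above the 720 CPM (702 to 739) of the spots called elsewhere. Folr1 had 3 UMIs, Clic6 1 and Kcnj13 1. The part of pituitary, meningeal and blood RNA in the Ptgds level was not tested.

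Chromatin at the start sites was compared with this RNA. On GRCm38, Ttr lies on chromosome 18 (20665280 to 20674321, + strand), Folr1 on chromosome 7 (101858331 to 101870788, - strand), Kcnj13 on chromosome 1 (87386363 to 87394729, - strand), Clic6 on chromosome 16 (92485736 to 92541243, + strand), Otx2 on chromosome 14 (48657677 to 48673819, - strand) and Ptgds on chromosome 2 (25466709 to 25470046, - strand). Kcnj13 lies within the span of Gigyf2, which runs the other way and had 887 UMIs, Otx2 overlaps the oppositely oriented Otx2os1, with 670 UMIs, and Folr1 the oppositely oriented Anapc15, with 171 UMIs. How the counting used strand is not given in the sources used here, so the counts of Kcnj13, Otx2 and Folr1 are uncertain to that extent. Clic6 overlaps 2410124H12Rik, with 5 UMIs, on the same strand, so its count is uncertain whichever way strand was used. The start-site window of Ttr is shared with the antisense gene Gm16090, with 9 UMIs.

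Ttr had few promoter fragments for its RNA. The 2 kb window centred on its start site held 40 fragments in the kept spots (28.6 to 54.5, exact Poisson interval), at percentile 20.6 of protein-coding genes, while its RNA was at percentile 99.8. Each of these fragments came from a different spot. The median was 160 fragments for all protein-coding genes, 20 for the 2638 coding genes without a UMI and 303 for the 1775 genes with at least 1000 UMIs. Of the latter, 33, including Ttr, had 40 fragments or fewer, or 1.86%. Among the 33 genes with as much RNA as Ttr or more, Ttr included, 4 had fewer fragments, namely Hba-a1 (23), Hba-a2 (18), Hbb-bs (24) and Nrxn3 (37), and the median was 263.

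Ptgds, with 163 fragments (139 to 190), was at percentile 50.5. Otx2 had 90 (72.4 to 111), at percentile 36.6, and Clic6 82 (65.2 to 102), at percentile 34.5. Folr1 had 53 (39.7 to 69.3), at percentile 25.5, and Kcnj13 31 (21.1 to 44.0), at percentile 16.3. Ttr thus had fewer promoter fragments than Clic6, whose RNA was far lower, and its interval overlapped those of Kcnj13 and Folr1. With every annotated start site included, fragments per kilobase were 65.4 at Ptgds (5 sites), 39.5 at Clic6 (2 sites), 37.8 at Otx2 (10 sites), 23.8 at Folr1 (15 sites), 19.99 at Ttr (1 site) and 15.0 at Kcnj13 (2 sites), so that Clic6 and Otx2, whose intervals overlapped, changed places and the rest of the order was kept.

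**Figure D5:**
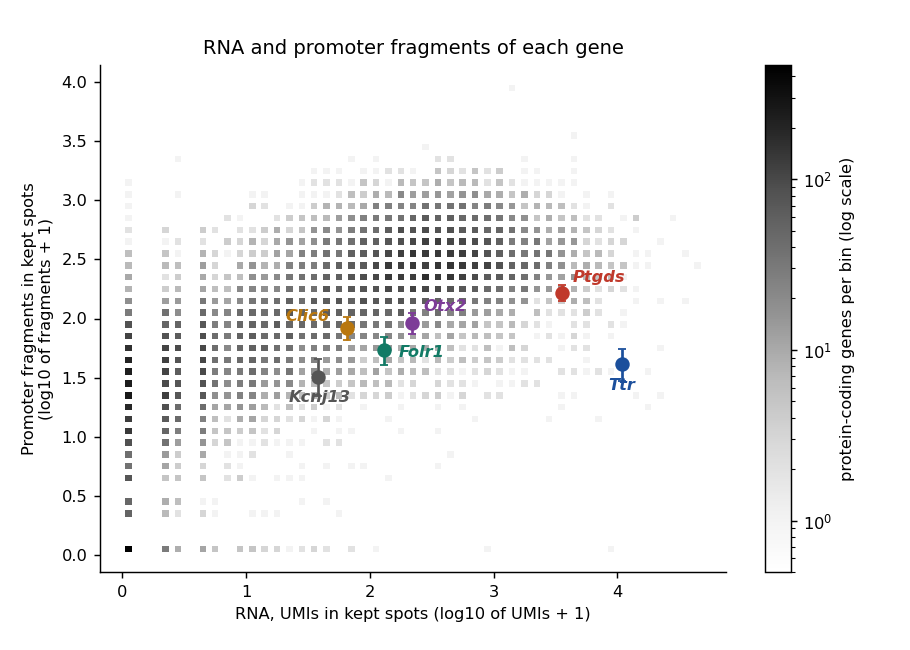
RNA (log10 of UMIs + 1) is plotted against promoter fragments within 1 kb of the start site (log10 of fragments + 1). Grey squares give the number of protein-coding genes per bin and coloured points the 6 genes, with 95% Poisson intervals on the fragments. Ttr lies far to the right, at 10947 UMIs, and low, at 40 fragments, whereas Ptgds has 163 fragments at 3548 UMIs.

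The peak calls differed in the same way. The deposited peaks, called on the library as a whole, included none within 10 kb of Ttr, Folr1 or Kcnj13. A peak covered the Ptgds start (chromosome 2, 25469299 to 25470093), with 192 cut sites in 107 spots, while a stronger one within 10 kb, with 902 cut sites, lay at the start of the neighbouring gene Paxx. Of 4 peaks near Otx2, the pair at the most upstream start (chromosome 14, 48673523 to 48674024 and 48674144 to 48674974) had 56 and 101 cut sites, and the strongest, within the gene (48665873 to 48666698), had 154 in 84 spots. The peak near Clic6, with 115 cut sites, was upstream of its annotated span, within 1 kb of the start of 2410124H12Rik.

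At this depth the promoter fragments of single genes among the 6 were too few to show whether they followed the zones of the RNA. The core held 1 Ttr promoter fragment, where the rate elsewhere gave 0.329, a ratio of 3.04 (0.0749 to 18.1). The flank held 3, where it gave 2.03, a ratio of 1.47 (0.291 to 4.67). Kcnj13 had 2 fragments in the core, where the rate elsewhere gave 0.256, a ratio of 7.82 (0.903 to 31.0). Folr1 had 0 of its 53 fragments in the core and flank, where the rate elsewhere gave 0.484 and 2.99, and a count of 0 allows up to 3. Over the 6 genes the core held 7 fragments, a ratio of 1.79 (0.717 to 3.73). In the 100 Ttr-rich spots, Ttr had 2 fragments, a ratio of 1.20 (0.141 to 4.66), Folr1 0, Kcnj13 2, Clic6 6, Otx2 4 and Ptgds 6. Clic6, at 1.80 (0.642 to 4.11), was the only countable member past 1.5 there, as were 11.4% of 22021 genes with at least 50 fragments. With windows of 500 bp on each side the ratio of Clic6 was 0.533, so neither its direction nor its call was kept. For core over elsewhere that share was 24.3%, and none of the 4 countable members passed 1.5, although Clic6, with 1 fragment, lay at 1.4997. Most of these intervals are wide enough to hold no change as well as several-fold change. In the Ttr-rich spots those of Folr1 (0 to 1.65) and Ptgds (0.316 to 1.94) ended below 2.

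The 20 other choroid plexus genes taken as a sum had 46 promoter fragments in the core, where the rate elsewhere gave 22.5, a ratio of 2.05 (1.495 to 2.74), and 1.05 (0.883 to 1.24) in the flank. Among these genes Ecrg4, with 7 of the 46 fragments and a ratio of 3.85 (1.53 to 8.08), and the bicarbonate transporter Slc4a5, with 6 and 9.38 (3.33 to 21.5), had intervals above 1 and were named after these values were seen. RNA had chosen the core, so the fragments are a separate reading of these spots.

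RefSeq promoters (GRCm38.p6, 250 bases before to 50 bases after a start) were held for Kcnj13, Otx2 and Ptgds. The promoters of Ttr, Folr1 and Clic6 are named only. Exact matches were sought on both strands to TAATCC, the core of OTX binding sites, and to the TATA box TATAAA, and both are in capitals. Matches to the motifs did not overlap. Those shown are the promoter of Kcnj13, a gene without a peak within 10 kb, which had a TATA box, the promoter under the Ptgds peak, and the promoter of Otx2 with a TAATCC match. This Otx2 promoter belongs to a start downstream of the one at which fragments were counted above, and it lies outside the peaks near the gene.
Kcnj13, chr1:87394680-87394979, - strand: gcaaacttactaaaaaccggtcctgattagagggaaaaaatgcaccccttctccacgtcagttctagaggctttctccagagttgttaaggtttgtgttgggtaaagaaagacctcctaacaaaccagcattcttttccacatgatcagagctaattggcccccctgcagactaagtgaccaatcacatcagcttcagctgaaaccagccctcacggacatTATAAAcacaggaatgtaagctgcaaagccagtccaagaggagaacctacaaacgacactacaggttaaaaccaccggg
Ptgds, chr2:25469700-25469999, - strand: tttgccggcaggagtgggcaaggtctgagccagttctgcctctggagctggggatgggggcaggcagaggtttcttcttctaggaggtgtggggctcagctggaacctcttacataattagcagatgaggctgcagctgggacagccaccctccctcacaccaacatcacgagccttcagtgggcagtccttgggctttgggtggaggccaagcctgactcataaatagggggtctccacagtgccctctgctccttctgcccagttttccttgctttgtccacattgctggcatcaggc
Otx2, chr14:48665060-48665359, - strand: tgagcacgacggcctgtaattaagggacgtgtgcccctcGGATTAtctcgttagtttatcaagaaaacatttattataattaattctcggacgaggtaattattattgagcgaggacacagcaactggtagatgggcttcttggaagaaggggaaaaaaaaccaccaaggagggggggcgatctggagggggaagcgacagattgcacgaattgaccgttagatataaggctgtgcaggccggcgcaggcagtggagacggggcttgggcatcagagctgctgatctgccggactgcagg
The TATAAA match of Kcnj13 began 29 bases before the start site. The TAATCC match of Otx2 was on the opposite strand and began 211 bases before the start. Of the other 3 Otx2 promoters held, the one at chr14:48667595-48667894 had a TATAAA match, 192 bases before its start. No match to either motif was found in the Ptgds window. Of 32851 promoters, 13.6% held TATAAA or its complement and 7.06% held TAATCC or its complement, so each match is a description only.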

How the data were processed

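SPARC-seq gave 1 RNA and 1 accessibility library of the same genotype. Per the file headers, the authors ran cellranger-arc 2.0.1 on GRCm38, and the submitters' processing notes name Seurat 4.0 and build mm10. The deposited matrix held raw UMI counts per gene and cut-site counts per peak, and the deposited fragment file held duplicate-collapsed fragments with counts of read pairs. SPARC-seq is not described in the methods available here. The genes and lists were chosen with earlier results of these data known.

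Barcodes were kept if they had 500 to 6000 genes and no more than 20% of UMIs from mitochondria. CPM used all UMIs of a spot. Start sites came from GENCODE release M21 (most upstream principal transcript). Intervals were exact Poisson, exact Clopper-Pearson or conditional binomial. A gene was countable with at least 50 UMIs, or 50 promoter fragments. Genes named were the 6, list genes with at least 20 UMIs (those with most UMIs and those past the limit) and the 5 with the highest r among genes with at least 200 UMIs. The zones, the Ptgds-rich spots, the muscle-rich comparison and the segment correlations were added after the data were seen. Genes that act with Ttr are not reported here. Steps were tested on simulated data with python 3.11.15, numpy 2.4.6 and scipy 1.17.1.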

Additional observations from a re-analysis of the deposited data

Results flagged for a closer look

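The 507 barcodes outside the count matrix, which the comparisons did not use, held 52 promoter fragments of the 6 genes, above the 3 that a count of 0 allows. They made up 10.2% of all such fragments, next to 11.02% of all fragments in the file, with 7 at Ttr, 6 at Folr1, 4 at Kcnj13, 7 at Clic6, 11 at Otx2 and 17 at Ptgds.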

How the results depend on the processing

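Of 242 values under alternatives, 213 stayed within the 95% interval of the reported value, or within 0.05 of it for correlations. Without Gm42418 in the total, Ttr had 1325 CPM and Ptgds 429, and without the second segment holding most of the gene's UMIs they had 1073 and 371. Without the core Ttr had 966 CPM and Folr1 12.4, and without the 3 Ttr segments as well 720 and 11.2. By mean CPM per segment, the 5 top second segments held 36.1% and the 5 top first segments 16.3% of Ptgds. On raw UMIs r was 0.39 for Ttr and Folr1, 0.25 for Ttr and Clic6 and 0.10 for Ttr and Kcnj13, and Spearman's rho was 0.0897 and 0.0230 for the first 2 pairs. After thinning to 2000 UMIs, r for Folr1 and Kcnj13 was -0.0117. With 2.5% of spots called Ttr-rich the ratios were 21.7 for Ttr, 12.6 for Folr1 and 9.36 for Clic6, with 10% they were 10.5 for Ttr, 4.90 for Folr1 and 0.822 for Ptgds, and without the segment ctgatggt the Ttr ratio was 12.1. In spots with a UMI of the 4 low genes, the Ttr ratio was 6.13 at 2 or more UMIs, 1.89 without ctgatggt and 1.13 without the core. Promoter windows of 500 bp put Ttr at percentile 13.9 and gave Clic6 a ratio of 0.533 in Ttr-rich spots, and windows of 2 kb put Otx2 at percentile 32.1. Apart from fewer spots where spots were left out, the cause of these shifts was not tested. No paired analysis was possible because each assay had 1 library.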

Other observations

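The same 50 sequences served as first and as second segments, and some returned in both roles for different genes. Of the 3 second segments highest in Ptgds, 2 (gaccttga and tagagtaa) were among the 5 first segments highest in Ttr. The first segment highest in Ptgds, ctgatggt, at 1074 CPM (941 to 1220), was among the 3 second segments highest in Ttr. Over the 46 second segments, the antisense neighbour Otx2os1 was the gene second most like Otx2, with r = 0.60, after Plekhm3 with 0.60.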
